A study of Xenopus tropicalis with 31 samples.

Results

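The Hox cluster genes of *Xenopus tropicalis* are described here: the protein-coding genes on chromosomes 1 to 10 of the RefSeq annotation of UCB_Xtro_10.0 whose symbol is hoxa, hoxb, hoxc or hoxd followed by a number. The members reported are 35 of 21747 protein-coding genes, and no measured value entered the rule. There were 9 hoxa genes in 87.1 kb of chromosome 6 (42145948 to 42233020), 9 hoxb genes in 107 kb of chromosome 10 (11994003 to 12101179), 10 hoxc genes in 280 kb of chromosome 2 (145920777 to 146201141) and 7 hoxd genes in 166 kb of chromosome 9 (64970180 to 65135965). Each gene was read with 5 kb on each side, called its window. RNA was not measured in these files, so whether any of these genes was silent at the stages studied could not be checked.

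The study used chromatin immunoprecipitation with sequencing (ChIP-seq) to ask how the maternal transcription factors Foxi2 and Sox3 mark regulatory DNA of the ectoderm before and during early gastrulation. Foxi2 and Sox3 were profiled in whole wild-type embryos at stages 8, 9 and 10.5 (2 libraries per factor and stage), from the blastula to the early gastrula. At stage 10.5 the acetylated histone H3K27ac (1 library per tissue) and the methylated histone H3K27me3 (2 libraries per tissue) were profiled in dissected wild-type ectoderm and endoderm. The histone acetyltransferase P300 (Ep300) was profiled in ectoderm and endoderm at stage 10.5 in a first experiment (wild type, 1 library per tissue) and in a second (2 libraries per group) that compared wild type with FS morphants, embryos that received translation-blocking morpholinos against *foxi2* and *sox3* on the animal side.

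In all, 31 samples fell into 19 groups, 3 of them input DNA, and the groups gave 16 lists of peaks or regions. Each of these groups has 1 list and not 1 per library, the labels do not say whether those libraries came from separate clutches, and read depth is not known from the lists. No spread between replicates, and so no test between groups, could be had. Member counts are therefore set beside the same count over all 21747 genes. As a check of the tissue labels, all 9 ectoderm marker genes had an H3K27ac region and a P300 peak in wild-type ectoderm, while 5 and 4 had these in endoderm. All 10 endoderm markers had both in endoderm, and 3 and 6 of them had H3K27ac and P300 in ectoderm. Over all genes, 61.9% had H3K27ac in ectoderm and 57.6% in endoderm, and 12.0% and 20.4% had P300. Some ectoderm markers, such as *tp63* and *dlx5*, are genes the paper shows with P300 in these data, so for them the check is not independent. Of 8 mesoderm markers, 3 had H3K27ac in ectoderm and 7 in endoderm, and the part of mesoderm cells in the values below was not tested.

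Hox genes encode homeodomain transcription factors that give cells their position along the head-to-tail axis. In vertebrates they lie in clusters, and the order of the genes in a cluster follows the order of their activation in time and along the axis, with low-numbered genes earliest and most anterior. Before activation the clusters are a classic target of Polycomb repressive complexes, which write H3K27me3, and retinoic acid, Wnt and FGF signals, in part through Cdx factors, are known activators. In *Xenopus* the transcription of *hoxd1*, a retinoic acid target, is known to begin in the gastrula.

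H3K27me3 regions covered most of the Hox gene windows in both tissues. Many of these regions were joined from neighbouring peaks, and the gaps between joined peaks count as covered here. In ectoderm 34 of the 35 members had at least 50% of the window under H3K27me3, against 9.44% of all genes, and in endoderm 33 did, against 8.25%. The median member was covered over 100% of its window in each tissue, where the median over all genes was 2.62% in ectoderm and 1.88% in endoderm. The windows of 29 members in ectoderm (3.02% of all genes) and of 30 in endoderm (2.5% of all genes) were wholly covered. At least 90% was covered in 31 members in ectoderm (3.78%) and 32 in endoderm (3.19%), and 32 members passed 50% in both tissues (5.7%). Merged, the member windows were covered over 93.2% of their bases in ectoderm and 92.7% in endoderm. From its first to its last member, the hoxa cluster was covered over 100% in each tissue, hoxb over 85.8% in ectoderm and 97.6% in endoderm, and hoxd over 86.2% and 84.8%. The hoxc cluster, with long stretches between genes, was covered over 54.0% and 51.0%. The wholly covered windows included those of all 9 hoxa members, such as *hoxa2* and *hoxa3*, and of all 15 members with the numbers 4 to 8, such as *hoxb4*, *hoxc8* and *hoxd8*. At least 1 H3K27me3 region touched every member in each tissue, but 67.1% of all genes in ectoderm and 63.5% in endoderm also had that much. Among other families of developmental regulators, the 47 nkx, pax, dlx, lhx, irx and sine oculis genes had a median coverage of 67.3% in ectoderm and 62.2% in endoderm, and the 44 forkhead genes had 8.52% and 3.32%.

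**Figure D1:**
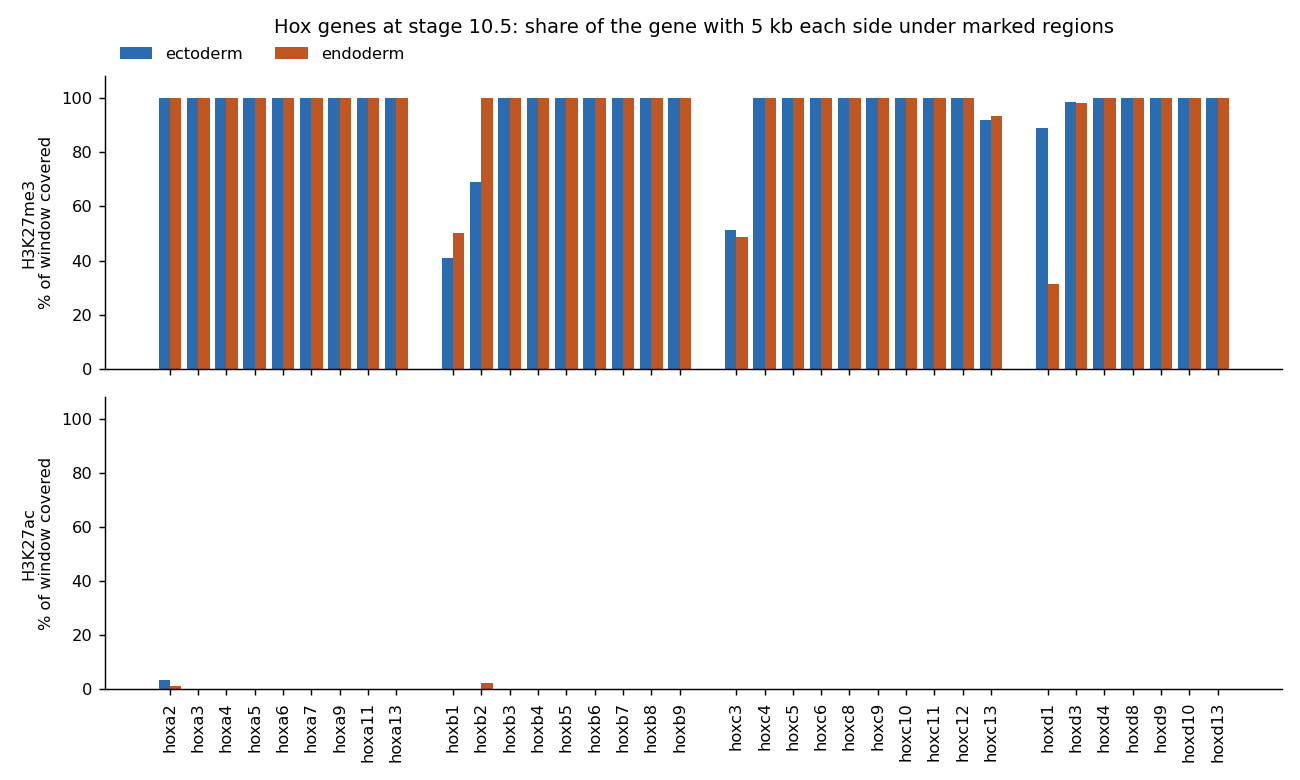
Percent of each Hox gene window (gene with 5 kb each side) covered by H3K27me3 regions (upper) and H3K27ac regions (lower) at stage 10.5, with 1 bar for the combined list of ectoderm and 1 for that of endoderm. H3K27me3 regions cover 100% of most windows in both tissues, with *hoxb1*, *hoxc3* and *hoxd1* lowest. No window has more than 3.48% under H3K27ac. Gaps between peaks joined into a region count as covered.

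The members that were not wholly covered lay at cluster edges or beside a gap. The window of *hoxb1*, a hindbrain gene at the end of its cluster, was covered over 41.0% in ectoderm and 50.1% in endoderm. That of its neighbour *hoxb2* was covered over 69.2% and 100%. *hoxc3*, at the far low-numbered end of the hoxc cluster, had 51.3% in ectoderm and 48.8% in endoderm, and *hoxc13*, at the other end, had 92.0% and 93.3%. In these genes the 2 tissues lay near each other except at *hoxb2*. *hoxd3* had 98.5% in ectoderm and 98.1% in endoderm. At *hoxd1* coverage was 88.9% of the window in ectoderm and 31.4% in endoderm, the largest difference between tissues among the members. Without the flanks, *hoxb1* (54.0% and 50.2% of the gene in ectoderm and endoderm) and *hoxc3* (58.8% and 58.9%) were the only members whose gene itself was not wholly covered.

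At 29 members the window was wholly covered in both tissues (1.63% of all genes), so that no difference could show there. Coverage differed by over 10 percentage points at 2 of the 35 members and at 21.4% of all genes, which cannot be set against each other where most members sit at 100%. Endoderm minus ectoderm, the difference was -57.5 points at *hoxd1*, which had more in ectoderm, and 30.8 points at *hoxb2*, which had more in endoderm. *hoxb1* came next with 9.06 points. The remaining differences were small, with -2.55 points at *hoxc3*, 1.30 points at *hoxc13* and -0.31 points at *hoxd3*. With 1 list per tissue, no error can be put on these differences. The 2 largest also rest on joined regions, which hold gaps between peaks. The ectoderm region of *hoxd1* was joined from 3 peaks and the endoderm region over *hoxb2* from 10. How much of either difference is gap is not known.

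The Hox regions stood near the top of the ranked H3K27me3 lists. Regions had been joined from neighbouring peaks and ranked by their signal, and 243 of 29268 regions in ectoderm and 127 of 27207 in endoderm lay above the ranking cutoff. In ectoderm the main region of hoxa ranked 8, that of hoxd 9, that of hoxc 10 and that of hoxb 13, with the regions of *hoxc13* at rank 85 and *hoxc4* at rank 113 also above the cutoff. These 6 regions reached the windows of 32 members, against 1.45% of all genes. In endoderm the 4 regions above the cutoff ranked 23 (hoxd), 25 (hoxa), 28 (hoxc) and 34 (hoxb) and reached 31 members, against 0.961% of all genes. Above-cutoff regions touched 25 of the 47 homeobox genes of the other families in ectoderm and 8 in endoderm. Ranks are counted within a list and were not compared between tissues. The main regions of the 4 clusters were 93.6 to 167 kb long in ectoderm and 97.6 to 159 kb long in endoderm. The median region was 1116 bp long in the ectoderm list and 1140 bp in that of endoderm. How much of these ranks comes from region length was not tested.

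All hoxa members lay in 1 joined region in each tissue, as did all hoxb members in endoderm, while hoxc, hoxd and, in ectoderm, hoxb were split. The hoxa region was 118 kb long in each tissue and was joined from 4 peaks in ectoderm and 6 in endoderm, and it held all 9 hoxa windows. The main hoxb region held *hoxb2* to *hoxb9* in ectoderm (93.6 kb, 3 peaks) and *hoxb1* to *hoxb9* in endoderm (113 kb, 10 peaks). In ectoderm *hoxb1* had a region of its own, 6.23 kb long at rank 659. It ended at position 12002629 of chromosome 10, and the main hoxb region began at 12015463. Whether this split, absent in endoderm, comes from the distance over which peaks were joined was not tested. *hoxc5* to *hoxc12* shared a region of 106 kb (3 peaks) in ectoderm and 97.6 kb (2 peaks) in endoderm, whereas *hoxc3*, *hoxc4* and *hoxc13* each had a separate region. The other 6 hoxd genes, *hoxd3* to *hoxd13*, shared 167 kb (17 peaks) in ectoderm and 159 kb (11 peaks) in endoderm. *hoxd1* lay apart from them, in a region of 19.0 kb (3 peaks, rank 609) in ectoderm and of 3.79 kb (1 peak, rank 5026) in endoderm.

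Joined regions hold the gaps between their peaks, and the H3K27me3 lists do not give the peaks themselves. In H3K27ac regions made of 2 peaks, for which peak lengths are listed, the largest gap was 12485 bp (5851 regions). With every gap that long, at least 68.2% of the hoxa region length in ectoderm and 46.9% in endoderm would be peak. This bound holds only if the H3K27me3 regions were joined over the same distance as the H3K27ac regions, which was not checked. For the main hoxc region, *hoxc5* to *hoxc12*, the same bound was 76.5% and 87.2%, and for the main hoxb region 73.3% and 0.953%. It was 0% and 21.3% for *hoxd3* to *hoxd13*, 0% for the regions of *hoxc3* and *hoxc13* in each tissue, and 0% for that of *hoxd1* in ectoderm. The regions of *hoxc4* in each tissue, of *hoxb1* in ectoderm and of *hoxd1* in endoderm are single peaks and hold no gap. Coverage is thus least certain where the bound is at or near 0%.

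H3K27ac was almost missing from the Hox windows. An H3K27ac region overlapped 1 member in ectoderm, against 61.9% of all genes, and 2 in endoderm, against 57.6%. In both tissues it was a short region beside *hoxa2*, a hindbrain gene. It measured 0.553 kb at rank 9996 in ectoderm and 0.2 kb at rank 16036 in endoderm. It covered 3.48% of the *hoxa2* window in ectoderm and 1.26% in endoderm. The other member in endoderm was *hoxb2*, with a region of 0.311 kb (rank 13808, 2.27% of its window). No member had 10% of its window under H3K27ac, which 36.5% of all genes had in ectoderm and 28.8% in endoderm. Of the 47 other homeobox genes 17 had H3K27ac in each tissue, and of the 44 forkhead genes 20 in ectoderm and 27 in endoderm.

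The 2 marks were combined in the same way at most members. H3K27me3 over at least 50% of the window in both tissues, with no H3K27ac in either, was found at 30 of 35 members and at 1.85% of all genes. It was found at 15 of the 47 other homeobox genes and at 6 of the 44 forkhead genes. Beyond the cluster, the nearest endoderm H3K27ac to *hoxd1* began 20.4 kb away. It was 43.1 kb long (15 peaks, rank 663, above the cutoff). The nearest in ectoderm was 0.331 kb long and 53.6 kb away. Both regions overlapped the window of *mtx2*, the neighbouring gene on that side, and covered 77.3% of it in endoderm and 0.641% in ectoderm. Which library set the endoderm H3K27ac ranks is not settled.

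**Figure D2:**
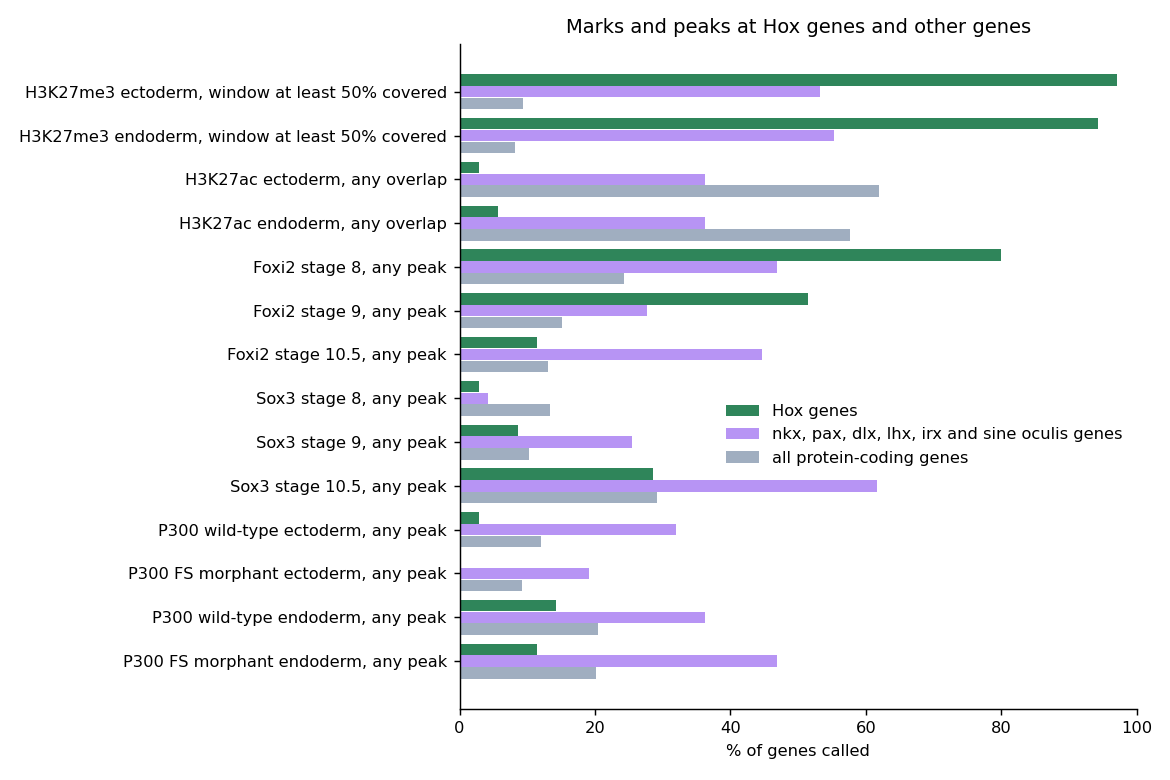
Percent of genes with each mark or peak in the gene window, for the 35 Hox genes, the 47 nkx, pax, dlx, lhx, irx and sine oculis genes and all 21747 protein-coding genes, 1 combined list per row. Hox genes stand above all genes for H3K27me3 (97.1% in ectoderm) and for Foxi2 at stages 8 (80.0%) and 9 (51.4%), and below them for H3K27ac (2.86% in ectoderm).

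Foxi2, a forkhead factor that the egg supplies to the animal side of the embryo, was found over the Hox clusters in the blastula and at few sites in the gastrula. At stage 8, 28 of 35 members had a Foxi2 peak in the window, against 24.3% of all genes. At stage 9 there were 18, against 15.1%, and at stage 10.5 there were 4, against 13.1%. The Hox counts at stages 8 and 9 lie above the share over all genes, and the count at stage 10.5, which is 11.4% of the members, lies near it. A Foxi2 peak at stage 8 with none at stage 10.5 was seen at 25 members, against 14.6% of all genes, at 7 of the 44 forkhead genes and at 8 of the 47 other homeobox genes. In contrast, the other homeobox genes had a Foxi2 peak in 22, 13 and 21 cases at stages 8, 9 and 10.5. The Evx genes, which neighbour hoxa and hoxd, went the way of the members. Of these 2 genes, 2, 1 and 0 had a Foxi2 peak at the same stages, and of the 6 ParaHox genes 0, 1 and 3.

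Neighbouring windows share peaks, so distinct peaks were also counted. The Hox windows, 0.443 Mb in all, held 40 (stage 8), 15 (stage 9) and 4 (stage 10.5) Foxi2 peaks. This is 90.2, 33.8 and 9.02 peaks per Mb, where the 874 Mb of all gene windows held 9.73, 5.01 and 4.59. The density in Hox windows was thus 9.28, 6.75 and 1.97 times that of all gene windows at stages 8, 9 and 10.5. At stage 8 the hoxa windows held 15 peaks, hoxc 12, hoxd 10 and hoxb 3. Peak strength was not unusual, with a median enrichment over input of 15.2-fold at stage 8 (14.6-fold over the whole list) and of 20.7-fold at stage 9 (20.1-fold over the whole list). Of the 40 peaks at stage 8, 39 lay in H3K27me3 regions of stage 10.5 ectoderm and 38 in those of endoderm, against 26.6% and 24.7% of the whole list. The windows themselves were covered over 93.2% and 92.7%, so nothing is read from these counts. Of the 40, 0 overlapped H3K27ac of either tissue, which 33.3% of the whole stage 8 list did in ectoderm. H3K27ac covered a mean of 0.099% of the Hox windows in ectoderm and 0.101% in endoderm, so nothing is read from this count either.

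The Foxi2 lists differ in length, from 13158 peaks (stage 8) to 6668 (stage 9) and 6039 (stage 10.5). With each list held to its 4401 peaks of highest −log10 p, 18 members had a peak at stage 8, 16 at stage 9 and 3 at stage 10.5, where the shares over all genes were 10.5%, 10.7% and 10.0%.

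**Figure D3:**
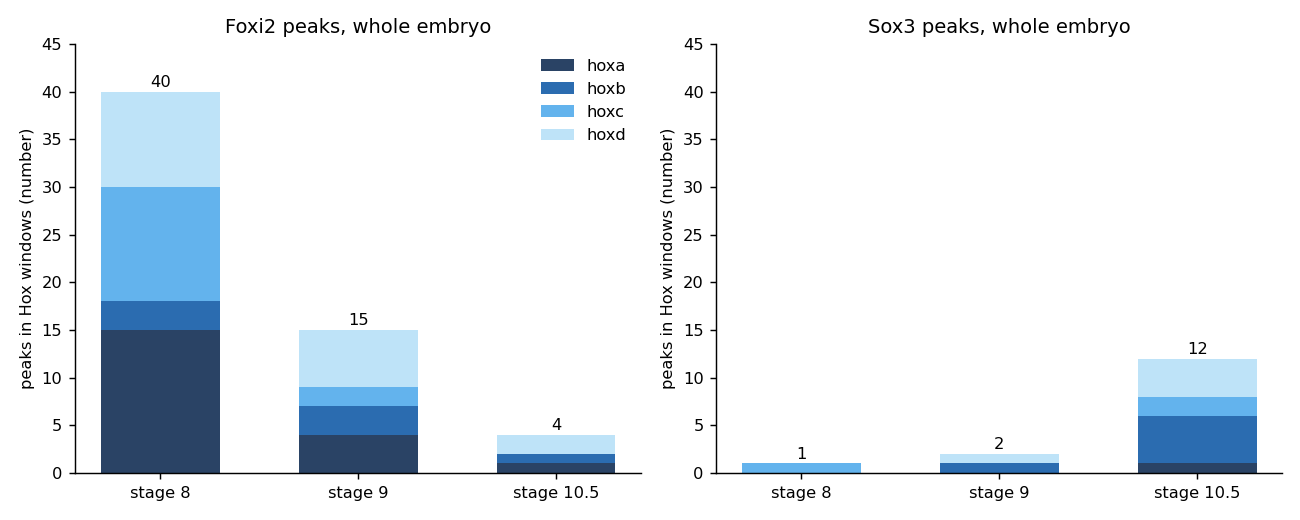
Number of distinct Foxi2 (left) and Sox3 (right) peaks in the windows of Hox genes at stages 8, 9 and 10.5 of whole embryos, stacked by cluster, 1 combined list per bar. Foxi2 peaks go from 40 to 15 to 4 and Sox3 peaks from 1 to 2 to 12.

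The strongest Foxi2 peak at stage 8 lay between *hoxa4* and *hoxa5*, inside the long gene model of *hoxa3*, at chr6:42178106-42178655, with 38.0-fold enrichment (−log10 p 301). It had 48.0-fold enrichment at stage 9 (−log10 p 310), when the median of the whole list was higher too, and was not listed at stage 10.5. The next lay inside *hoxa9*, a gene of the posterior trunk, with 35.2-fold enrichment at stage 8, 42.7-fold at stage 9 and no peak at stage 10.5. Both were thus among the strong blastula sites that were not called in the gastrula. Inside *hoxb7* a peak of 34.4-fold at stage 8 and 23.6-fold at stage 9, with another of 20.3-fold and 26.8-fold beside it, was also not listed at stage 10.5. The peak next to *hoxb6*, inside the gene model of *hoxb3*, had 29.2-fold enrichment at stage 8 and 26.6-fold at stage 9. One edge of *hoxd9* held a peak of 29.7-fold at stage 8 and 19.7-fold at stage 9. Further sites of this kind lay just before *hoxc12* (24.8-fold at stage 8, 19.3-fold at stage 9). The peaks inside *hoxa2* had 28.4-fold and 20.4-fold enrichment at stage 8 and were listed at stage 8 alone.

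A Foxi2 peak at stage 8 alone was found at 10 members, against 9.34% of all genes: *hoxa2*, *hoxa6*, *hoxa7*, *hoxc3*, *hoxc4*, *hoxc8*, *hoxc9*, *hoxc10*, *hoxc11* and *hoxd8*. Of these, 6 are hoxc genes. Another 15 had a peak at stages 8 and 9 but not at 10.5 (5.21% of all genes), among them the posterior genes *hoxa13*, *hoxc13* and *hoxd13*, and 3 (*hoxa3*, *hoxd9* and *hoxd1*) had a peak at all 3 stages (8.26%). Peaks at both stages 8 and 10.5 were thus found at 3 members, against 9.72% of all genes. These are counts of windows, and the peaks of different stages need not be the same site. No site of *hoxd9* was listed at all 3 stages. At *hoxd3*, *hoxd4* and *hoxd13* the peaks of stages 8 and 9 did not overlap. *hoxb1* was the only member with a peak at stage 10.5 and none at stage 8, and in all 29 members had a Foxi2 peak at some stage, against 28.6% of all genes. At stage 10.5 the peak of *hoxb1* had 28.4-fold enrichment, that of *hoxd1* 26.0-fold, that of *hoxd9* 21.9-fold and that of *hoxa3* 16.2-fold. *hoxb2*, *hoxb4*, *hoxb5*, *hoxb9*, *hoxc5* and *hoxc6* had no Foxi2 peak at any stage, and 4 of these, *hoxb2*, *hoxb5*, *hoxc5* and *hoxc6*, had none in any of the 12 Foxi2, Sox3 and P300 lists (47.9% of all genes).

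Fewer of the Hox sites of stage 8 were listed again in the gastrula than of stage 8 sites elsewhere. At stage 9, 12 of the 40 overlapped a Foxi2 peak by at least 1 bp (30.0%, Wilson 95% interval 18.1 to 45.4%), against 42.7% in other gene windows (41.7 to 43.8%). At stage 10.5, 3 of 40 did (7.50%, 2.58 to 19.9%), against 27.1% in other gene windows (26.2 to 28.1%). Above-cutoff H3K27me3 regions of ectoderm outside the Hox windows, with 369 peaks at stage 8, gave 40.1% at stage 9 (35.2 to 45.2%) and 22.0% at stage 10.5 (18.0 to 26.5%). The intervals at stage 9 overlap, as do those of the Hox windows and of the above-cutoff regions at stage 10.5. From stage 9 to stage 10.5, 2 of 15 Hox peaks were found again (13.3%, 3.74 to 37.9%), against 50.7% in other gene windows and 38.4% in the above-cutoff regions (31.7 to 45.6%). These intervals cover counting error alone and take peaks as independent, which neighbouring peaks of a cluster may not be.

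The stronger peaks made up most of those found again at stage 9, while the 3 found again at stage 10.5 are too few to compare by strength. Of the 20 stage 8 Hox peaks with the higher −log10 p, 11 were found again at stage 9 and 1 at stage 10.5. Of the other 20, 1 was found at stage 9 and 2 at stage 10.5. Over the whole list, peaks at or above the same −log10 p of 88.5 (6268 peaks) were found again in 68.6% of cases at stage 9 and 39.3% at stage 10.5. By cluster, all 3 hoxb peaks were found again at stage 9, as were 4 of 15 in hoxa, 3 of 10 in hoxd and 2 of 12 in hoxc.

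**Figure D4:**
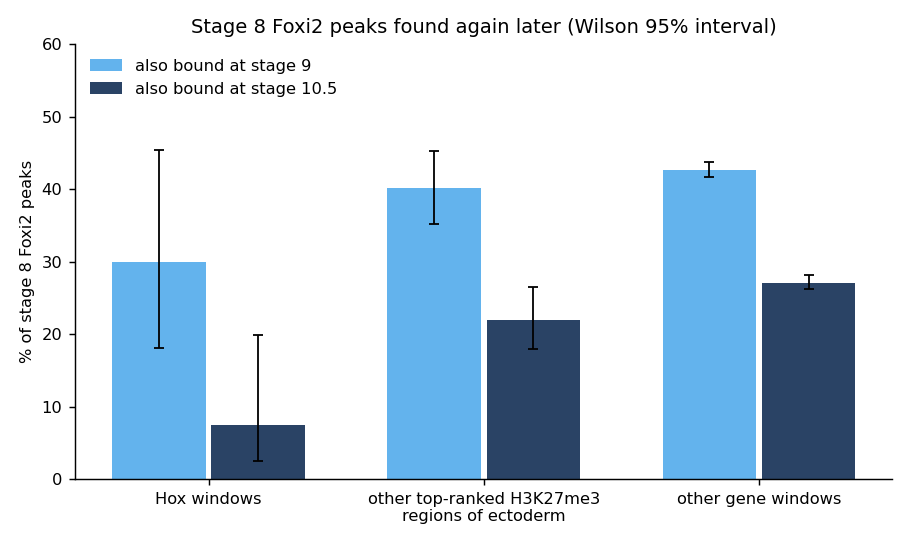
Percent of stage 8 Foxi2 peaks that overlap a Foxi2 peak at stage 9 (light) and at stage 10.5 (dark), in Hox windows (40 peaks), in ectoderm H3K27me3 regions above the ranking cutoff outside Hox windows (369 peaks) and in other gene windows (8460 peaks). Error bars are Wilson 95% intervals for counting error, and at stage 10.5 the Hox value of 7.50% has an interval of 2.58 to 19.9%.

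Sox3, a SoxB1 factor of the ectoderm and neural plate, was listed at few members in the blastula and at more in the gastrula. A Sox3 peak was found at 1 member at stage 8 (13.4% of all genes), 3 at stage 9 (10.3%) and 10 at stage 10.5 (29.2%). The list itself was longest at stage 10.5 (5827, 4401 and 14648 peaks), and at stages 9 and 10.5 the member shares of 8.57% and 28.6% were near those over all genes. The median Hox window is shorter than the median window over all genes. Of 16496 other genes with windows in the length range of the members, 24.8% had a Sox3 peak at stage 10.5, which is also near. Density was compared too. Distinct peaks numbered 1, 2 and 12. Per Mb, the Hox windows held 0.587, 1.45 and 2.36 times the Sox3 peaks of all gene windows at stages 8, 9 and 10.5. At stage 10.5 this was 27.07 against 11.45 peaks per Mb, so by density Sox3 lay above all gene windows there. The ratios at stages 8 and 9 rest on 1 and 2 peaks. At stage 10.5, 10 of the 12 lay in ectoderm H3K27me3 and 8 in endoderm H3K27me3, against 28.7% and 26.9% of the whole list. The windows themselves were covered over 93.2% and 92.7%, so nothing is read from these counts. Of the other homeobox genes, 29 of 47 had a Sox3 peak at stage 10.5. Held to 4401 peaks, the Sox3 list of stage 10.5 reached 2 members (10.6% of all genes), that of stage 9 reached 3 (10.3%) and that of stage 8 reached 1 (10.5%), so the highest count was then not at stage 10.5.

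The strongest Sox3 sites were those of *hoxd1* and *hoxb1*. At *hoxd1* the site had 26.0-fold enrichment at stage 9 and 25.4-fold at stage 10.5, when a second peak of 12.6-fold was listed farther out. *hoxb1* had peaks at stage 10.5 alone, of 28.2-fold at the end of the gene and 15.1-fold outside it. Among peaks in member windows, the paralogues *hoxb1* and *hoxd1* thus held the 3 Sox3 peaks of highest −log10 p at stage 10.5. Outside these windows, the Sox3 peaks between *hoxd8* and *hoxd9* had −log10 p of 129 and 131, above the 121 of the outer *hoxb1* peak. Weaker peaks at that stage lay in *hoxb9* (14.8-fold), beside *hoxb6* (12.8-fold, and 13-fold at stage 9), and at *hoxc13* (11.9-fold and 9.28-fold). The others were those of *hoxa3* (9.63-fold), *hoxd9* (7.59-fold), *hoxd3* (7.54-fold, also in the window of *hoxd8*) and *hoxb3* (7.38-fold). The peak at *hoxc10* was the only member peak at stage 8 (13.6-fold), and it was not found again. Foxi2 and Sox3 shared 4 member windows at stage 10.5, those of *hoxa3*, *hoxb1*, *hoxd1* and *hoxd9* (11.7% of all genes). Foxi2 at some stage with no Sox3 peak at any was found at 19 members, against 8.67% of all genes.

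P300, which acetylates H3K27 and marks active enhancers, was found at few members. In the second experiment a peak lay at 1 member in wild-type ectoderm (12.0% of all genes) and at 5 in wild-type endoderm (20.4%). In FS morphants it lay at 0 in ectoderm (9.26%) and at 4 in endoderm (20.2%). In the first experiment, with wild-type tissue, it lay at 3 members in ectoderm (12.6%) and 2 in endoderm (19.2%). These shares are near or below those over all genes, and between 9 and 22 of the 47 other homeobox genes had P300 in the same 6 lists. Peaks per Mb of Hox windows were 0.518 and 1.63 times those of all gene windows in wild-type ectoderm and endoderm of the second experiment. The ratio was 0 and 1.12 in morphant ectoderm and endoderm, and 1.55 and 0.605 in ectoderm and endoderm of the first experiment. These ratios rest on at most 6 Hox peaks a list. P300 was found at 7 members in at least 1 of the 6 lists, against 33.1% of all genes. The 1 Hox peak of wild-type ectoderm and the 6 of wild-type endoderm had no H3K27ac of their tissue on them, which 82.8% and 58.2% of all peaks of these lists had, and 1 of 1 and 4 of 6 lay in H3K27me3 of their own tissue (24.1% and 37.9% of all peaks). The Hox windows were almost free of H3K27ac and mostly under H3K27me3, so nothing is read from these counts.

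In wild-type ectoderm the P300 peak was that of *hoxd1* (9.10-fold), and it was not listed in FS morphant ectoderm. Over the whole wild-type ectoderm list, 44.1% of peaks were found again in FS morphant ectoderm, a list of 3593 peaks against 5552. With 1 Hox peak and 1 list per group, the absence at *hoxd1* cannot be told from that of other peaks. In endoderm the peaks in *hoxb3* (8.69-fold in wild type, 9.89-fold in morphants), next to *hoxb4* and inside the long model of *hoxb3* (7.16-fold and 7.01-fold), at *hoxd9* (6.04-fold and 7.09-fold) and next to *hoxd1* (6.01-fold and 6.20-fold) were listed in both. The peak at *hoxc12* (5.79-fold) and the outer peak of *hoxd1* (6.91-fold) were listed in wild type alone. The median enrichment of the Hox peaks was 6.48-fold in wild-type and 7.05-fold in morphant endoderm, against 9.15-fold and 9.58-fold over the whole lists. None remained in either endoderm list held to 3593 peaks, where 7.95% and 7.91% of all genes had a peak.

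In the member windows, Foxi2, Sox3 and P300 were all listed at the same site only beside *hoxd1* and *hoxb1*. Each time the site lay at the outer end of the cluster. The share of all genes with such a site was not counted, so whether these members are more or fewer than elsewhere is not known. At *hoxd1* the site began 275 to 883 bp beyond the gene on the side away from *hoxd3* and was listed for Foxi2 at all 3 stages (29.2-fold, 29.7-fold and 26.0-fold), for Sox3 at stages 9 and 10.5, and for P300 in wild-type ectoderm of both experiments and in endoderm of the second. Its summits lay between positions 65137108 and 65137251 of chromosome 9. The ectoderm H3K27me3 region of *hoxd1* (65130236 to 65149200) spans this site, and that of endoderm (65132440 to 65136231) ends before it. The outer site of *hoxb1*, about 1057 bp from the gene (chr10:11992457-11992946), held Foxi2 and Sox3 at stage 10.5 and P300 in ectoderm of the first experiment (2.90-fold) alone. The lowest-numbered member of the hoxc cluster, *hoxc3*, had no Sox3 or P300 peak and a Foxi2 peak at stage 8 alone (17.9-fold). A single factor also coincided with P300 elsewhere. The Foxi2 peak of *hoxd9* and the weaker Sox3 peak in *hoxb3*, both of stage 10.5, overlapped P300 in all endoderm lists. The outer Sox3 peak of *hoxd1* at stage 10.5 overlapped P300 of wild-type endoderm in the second experiment.

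**Figure D5:**
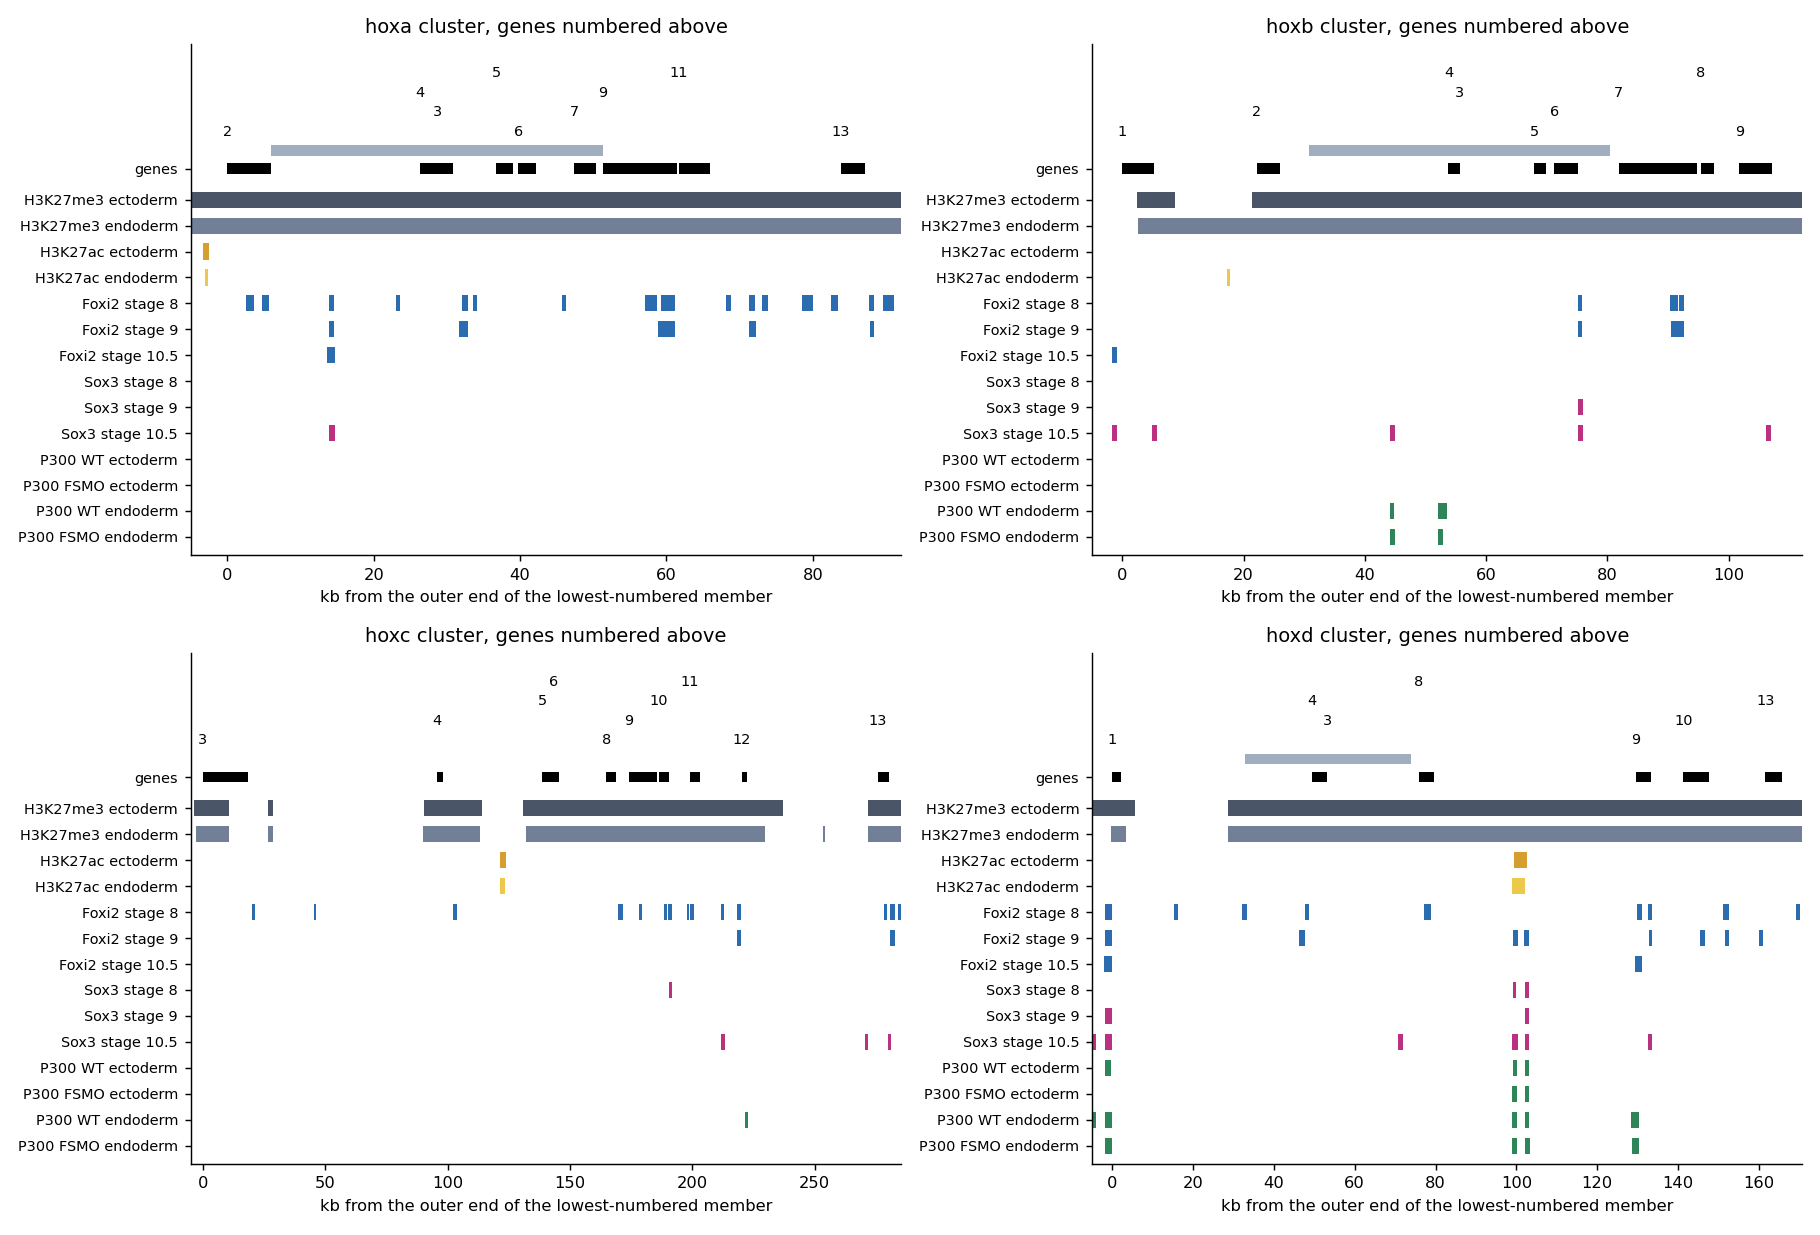
Maps of the 4 Hox clusters, in kb from the outer end of the lowest-numbered member, with genes (black, long models of genes 3 of hoxa, hoxb and hoxd in grey above) and, below, H3K27me3 and H3K27ac regions, Foxi2 and Sox3 peaks by stage and P300 peaks of the second experiment (WT, wild type; FSMO, FS morphant). Peaks and H3K27ac regions are drawn slightly wider than to scale so that they show, and Foxi2 peaks thin out from 40 in member windows at stage 8 to 4 at stage 10.5 while the H3K27me3 bars span all of hoxa and leave gaps in hoxc and beside *hoxd1*.

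Counts by position in the cluster were not tested, and *hoxa3*, *hoxb3* and *hoxd3*, which have the longest windows of all members, are 3 of the 5 with the numbers 1 to 3 that had Sox3 at stage 10.5. H3K27ac was found at members with the numbers 1 to 3 alone (1 in ectoderm and 2 in endoderm). Sox3 at stage 10.5 was found at 5 of the 8 with the numbers 1 to 3, at 2 of the 15 with the numbers 4 to 8 and at 3 of the 12 with the numbers 9 to 13. P300 in wild-type ectoderm was found at 1, 0 and 0, and in wild-type endoderm at 2, 1 and 2. Foxi2 at stage 8 was found at 6 of 8, 11 of 15 and 11 of 12, and at stage 10.5 at 3, 0 and 1. The gene models of *hoxa3*, *hoxb3* and *hoxd3* have lengths of 45.4, 49.7 and 41.3 kb and span other members. Their peaks are therefore counted for their neighbours too.

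Genes of the Hox pathway outside the clusters are set beside the same shares over all genes, 9.44% and 8.25% for at least 50% H3K27me3 and 61.9% and 57.6% for H3K27ac in ectoderm and endoderm. Of 8 cofactor genes of the pbx, meis and pknox families, whose products bind DNA with Hox proteins, 1 had at least 50% H3K27me3 in each tissue and all 8 had H3K27ac in each. Among 10 upstream regulators (Cdx factors, retinoic acid enzymes and receptors) *cdx2* alone passed 50% H3K27me3 in either tissue, and 9 had H3K27ac in ectoderm and 10 in endoderm. The *cdx2* window was covered over 100% by H3K27me3 and 0% by H3K27ac in ectoderm, and over 97.8% and 100% in endoderm. *cyp26a1*, which breaks down retinoic acid, had 100% of its window under H3K27ac in each tissue. The 10 Polycomb genes had 2 with at least 50% H3K27me3 in ectoderm and 1 in endoderm, and 8 with H3K27ac in each. Both Evx genes, which neighbour hoxa and hoxd, were covered by H3K27me3 in each tissue (99.6% of the window at *evx1* and 100% at *evx2*), and H3K27ac was found at neither in ectoderm and at *evx1* in endoderm. Of the 6 ParaHox genes, which include *cdx1*, *cdx2* and *cdx4* of the upstream regulators, 3 passed 50% H3K27me3 in each tissue. Of the 40 nearest genes outside the clusters, which include *evx1* and *evx2*, 5 in ectoderm and 4 in endoderm passed 50%, and 29 and 23 had H3K27ac.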

How the data were processed

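Reads had been aligned by the authors to the *X. tropicalis* genome v10.0 with Bowtie 2, duplicates removed, and peaks called with MACS2 against input DNA. Narrow peaks of replicates were combined into 1 list by irreproducible discovery rate, and per the file headers the H3K27me3 replicates were pooled before calling. The submitters' processing notes name Bowtie2 2.2.7. The deposited peak lists hold, for each peak, a fold enrichment (ratio of ChIP to input), a −log10 p and a scaled score. The deposited H3K27ac and H3K27me3 tables hold regions joined and ranked by the authors with ROSE, with a signal for ChIP and for input. The number of peaks in each region is a count that the authors deposited. The signal was not used. In the deposited endoderm H3K27ac table its column is headed with the animal-pole library, and which library set those ranks is not settled.

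Members were matched by symbol in the RefSeq table of UCB_Xtro_10.0, the build of the files, and 1 gene taken by the rule is not reported here and entered no count. An overlap was at least 1 bp, and coverage was the percent of the window under merged regions. The interval functions were tested on simulated data. Since 1 list stands for each group, no test was run, and Wilson intervals at 95% cover counting error only. Genes were named by fixed rules: the highest and lowest H3K27me3 coverage, the largest tissue differences, all H3K27ac overlaps, up to 10 peaks a list by −log10 p, and *hoxb1* and *hoxd1*. Other members were named where a count or a gap singled them out, after their values were seen. The members, lists and comparison families were chosen with earlier results of these data known. Python 3.11.15, numpy 2.4.6, pandas 2.3.3, scipy 1.17.1 and matplotlib 3.10.9 were used. Read depth is unknown. Promoter and peak sequences are not printed here, and DNA strand was not used. The protocol text in the labels names an antibody against another protein for every sample, and the titles were followed.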

Additional observations from a re-analysis of the deposited data

How the results depend on the processing

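Over 10 settings and 16 counts or medians of the members, 56 of 92 values stayed within 1.5 times the reported one and 36 did not. All H3K27me3 counts and medians stayed within it under every setting run, as did all values with the peak summit in place of any overlap and, a choice made after seeing the data, with *hoxa3*, *hoxb3* and *hoxd3* left out. With gene bounds alone, members with H3K27ac numbered 0 in ectoderm and 0 in endoderm, with Foxi2 12, 7 and 2 at stages 8, 9 and 10.5, with Sox3 0 and 1 at stages 8 and 9, and with P300 0 in wild-type ectoderm, 3 in wild-type endoderm and 2 in morphant endoderm. With 20 kb flanks they numbered 6 and 7 for H3K27ac in ectoderm and endoderm, against 76.5% and 73.6% of all genes. For P300 they numbered 4 in wild-type ectoderm (19.6% of all genes), 12 in wild-type endoderm (31.7%), 1 in morphant ectoderm (15.2%) and 11 in morphant endoderm (31.5%). For Foxi2 at stage 10.5 they numbered 8 (20.6%), and for Sox3 4, 10 and 22 at stages 8, 9 and 10.5 (22.9%, 16.7% and 43.8%). With the better-ranked 50% of each list they numbered 0 and 0 for H3K27ac, 0 for P300 in wild-type endoderm, 1 for morphant endoderm, 2 for Foxi2 at stage 10.5, and 0, 1 and 6 for Sox3. The share over all genes is not given for this setting, so nothing is read from these counts. With lists of equal length they numbered 0 and 0 for P300 in wild-type endoderm and morphant endoderm (7.95% and 7.91% of all genes). They then numbered 18 for Foxi2 at stage 8 (10.5%) and 2 for Sox3 at stage 10.5 (10.6%). At least 10% under H3K27ac left 0 and 0, and the first P300 experiment gave 3 and 2. With gene bounds alone, the share over all genes for Foxi2 was 18.4%, 11.3% and 9.88%, and for H3K27ac 53.2% in ectoderm and 48.0% in endoderm. For Sox3 it was 9.8% and 7.51% at stages 8 and 9. For P300 it was 9.02% in wild-type ectoderm, 15.1% in wild-type endoderm and 15.0% in morphant endoderm. Other than in the first P300 experiment, where the cause was not tested, these member counts come from wider or narrower windows, a stricter threshold or shorter lists. A window around the gene start was not run, since strand was not used, and no library could be left out of the combined lists. No paired analysis was possible because the lists already combine the replicates and no result comes from a test.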

Other observations

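Between *hoxd8* and *hoxd9*, outside all member windows, a pair of neighbouring sites was listed for P300 in all 6 lists, and it was singled out after the values were seen. The site nearer to *hoxd9*, at chr9:65033116-65033532 in wild-type ectoderm, had 10.4-fold enrichment there, 15.5-fold in FS morphant ectoderm, 11.8-fold in wild-type endoderm and 12.6-fold in morphant endoderm. The other site, at chr9:65036016-65036564, had 6.06-fold, 11.1-fold, 10.7-fold and 10.7-fold in the same order. These were the only P300 sites of the hoxd cluster that were listed in FS morphant ectoderm. Sox3 was listed at the site nearer to *hoxd9* at stages 8, 9 and 10.5 (13.7-fold, 22.8-fold and 14.5-fold) and at the other at stages 8 and 10.5 (11-fold and 14.6-fold), and Foxi2 at both at stage 9 alone (15.4-fold and 12.3-fold). An H3K27ac region touched both sites in ectoderm (2.79 kb, rank 5583) and the one farther from *hoxd9* in endoderm (2.68 kb, rank 4523), inside the joined H3K27me3 region, for which the share of gaps is not known.

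Between *hoxc4* and *hoxc5*, in a gap of the H3K27me3 regions of both tissues, lay an H3K27ac region of 1.61 kb (rank 9134) in ectoderm and 1.36 kb (rank 8557) in endoderm. No Foxi2, Sox3 or P300 peak was listed there. Between *hoxa11* and *hoxa13* a Foxi2 peak had 19.4-fold enrichment at stage 8 and 36.8-fold at stage 9 and was not listed at stage 10.5. Between *hoxd3* and *hoxd1*, outside H3K27me3, another had 25.1-fold enrichment at stage 8 alone.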
